A study of Homo sapiens with 32 samples.

Results

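U2OS cells carrying the A347D change in both copies of the p53 gene were compared with wild-type U2OS cells after both had been treated with etoposide. U2OS is a human osteosarcoma line, and etoposide is a poison of topoisomerase II that leaves double-strand breaks in DNA. The homozygous mutant cells, labelled p53 A347D/A347D and p53(AD/AD), are called HOM_ETO, and the wild-type cells, labelled p53 WT/WT and p53(+/+), are called WT_ETO. Both received 20 µM etoposide for 24 h. Each group had 4 libraries, which are 8 of the 32 libraries in the series, and every gene of the matrix entered the comparison: 35587 gene symbols, of which 16449 reached at least 10 normalized counts in at least 4 of the 16 etoposide libraries and were tested. The libraries with etoposide from cells without p53 (p53 KO, called KO_ETO) served as a second point of comparison, and libraries of the same homozygous and wild-type cells in DMSO, called HOM_DMSO and WT_DMSO, gave the difference before damage. Heterozygous cells (p53 WT/A347D) with etoposide entered the fit of the etoposide libraries and are given as single values for orientation. All edited genotypes were made from the same line with CRISPR-Cas9. The labels do not give the number of clones behind each genotype, so effects of genotype and of clone cannot be told apart. The 4 replicates of a group were separate plates, so the tests are against differences between plates of the same cells. Total counts recovered from the deposited values were 20.35 to 21.52 M in HOM_ETO and 18.25 to 23.04 M in WT_ETO. Values are normalized counts, and differences are log2 of the normalized count plus 1, HOM_ETO minus WT_ETO, with the standard error (SE) of limma's fit. The added 1 understates the change of genes near 0. A gene was called where the Benjamini-Hochberg adjusted p from limma was under 0.05 and the change at least 1.5-fold.

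The protein p53 is a transcription factor that is stabilized by DNA damage and binds its target genes as a tetramer. Its targets include brakes on the cell cycle, promoters of cell death, DNA repair factors, metabolic enzymes and the ubiquitin ligase MDM2, which degrades p53 in turn. Through p21, the product of CDKN1A, p53 also keeps RB family proteins on the promoters of cell cycle genes, which are then shut off. A347D lies in the tetramerization domain and is known for holding p53 as a dimer.

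The 5 well-known target genes of p53 followed here were all lower in the homozygous cells. CDKN1A had 7369, 7160, 7469 and 8105 normalized counts in HOM_ETO, against 34534, 31183, 35918 and 34809 in WT_ETO. MDM2 had 642.6, 616.8, 602.8 and 560.4 in HOM_ETO, against 1687, 1963, 1623 and 1813 in WT_ETO. In neither gene did the groups overlap, and the differences were -2.18 ± 0.07 for CDKN1A and -1.54 ± 0.09 for MDM2 (SE, limma adjusted p 4.90e-15 and 1.50e-11). Groups did not overlap for 53.9% of all tested genes. BBC3 (PUMA), which frees BAX and BAK from their inhibitors, had 292.0, 275.9, 270.7 and 332.5 in HOM_ETO, against 1517, 1446, 1509 and 1487 in WT_ETO. BAX, which opens the mitochondrial outer membrane, had 1499, 1466, 1557 and 1626 in HOM_ETO, against 3352, 3174, 3571 and 3379 in WT_ETO. Again no library of one group reached the other, with differences of -2.35 ± 0.08 for BBC3 and -1.13 ± 0.06 for BAX (SE, limma adjusted p 2.65e-14 and 3.03e-12). GDF15, a secreted stress cytokine, had the widest gap of these 5 targets. It held 147.2, 130.7, 148.0 and 160.7 normalized counts in HOM_ETO, against 8429, 7366, 8888 and 8137 in WT_ETO. The difference was -5.80 ± 0.09 (SE, limma adjusted p 1.81e-19). In bulk RNA, fewer cells that express a gene and less RNA per cell cannot be told apart. Over 20 alternative settings the difference ranged from -2.22 to -1.84 for CDKN1A and from -1.59 to -1.32 for MDM2.

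**Figure D1:**
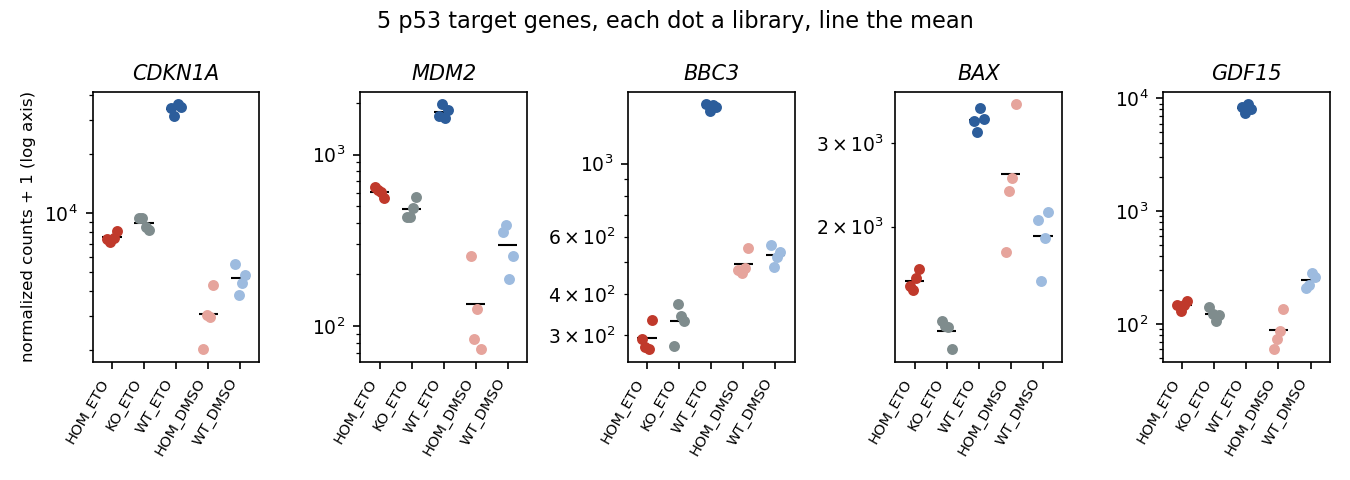
Normalized counts plus 1 on a log axis for 5 target genes of p53, with a dot for each library and a line at the mean of 4, in HOM_ETO, KO_ETO, WT_ETO, HOM_DMSO and WT_DMSO. HOM_ETO stands under WT_ETO and near KO_ETO for CDKN1A, MDM2, BBC3, BAX and GDF15.

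Over all tested genes, 2628 were higher (16%) and 2649 lower (16.1%) in HOM_ETO than in WT_ETO, 5277 in all (32.1%). Of the called genes 49.8% were higher. With total-count scaling the split was 4055 higher and 1722 lower, or 70.2% higher, and the median difference of all genes moved by 0.22. Differences below are relative to the deposited scaling, whose median was -0.02. The 8 libraries of the 2 groups did not overlap for 53.9% of the tested genes, so a gap between the groups is common in these data. The authors' deposited table has 2579 genes that passed the same thresholds as higher and 2628 as lower, and 2460 and 2531 of them were also called here, with 0 in opposite directions.

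**Figure D2:**
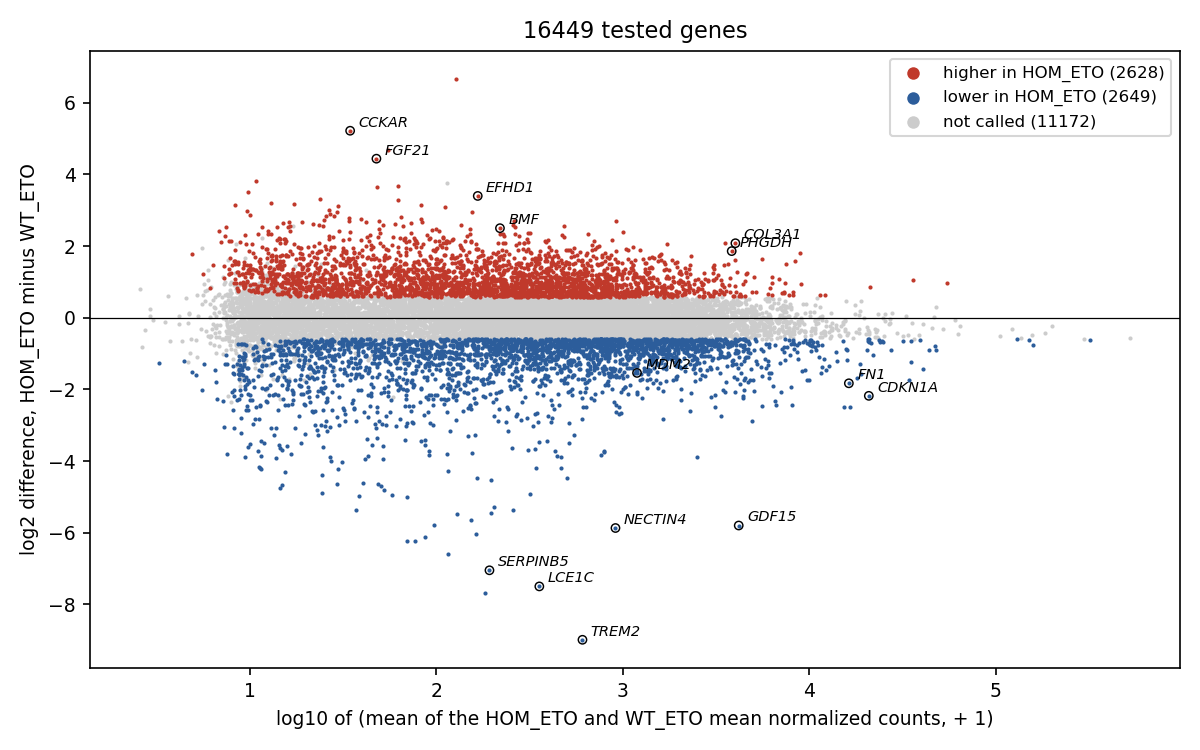
Log2 difference HOM_ETO minus WT_ETO against the log10 mean level for the 16449 tested genes, with called genes in red (2628 higher) and blue (2649 lower). TREM2, at -8.99, lies far below 0, and the called genes are split about evenly around it.

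The p53 target lists held 100 genes, all in the matrix, of which 96 were tested. In HOM_ETO 72 were lower and 2 were higher, with a median difference of -1.20, against -0.02 for all tested genes. The percentages of all tested genes called were 16.1% lower and 16% higher. Of these genes, 7 came from an earlier account of these data. Without them 65 of 89 were lower and 2 higher, with a median of -1.13. All 15 called genes among the 18 of cell cycle arrest and feedback were lower (median -1.27), including TRIM22, an interferon-induced antiviral gene, at -2.50 ± 0.10, and the cyclin-dependent kinase inhibitor CDKN2B at -3.55 ± 0.39 (SE). CDKN2B held only 0 to 2.37 normalized counts in HOM_ETO libraries, against 19.3 to 29.4 in WT_ETO libraries. In KO_ETO it averaged 0.631 and in heterozygous cells with etoposide 757.9. Cell death genes gave 9 of 16 lower and 0 higher, with a median of -0.67. FAS, a death receptor, held 279.4, 292.2, 277.6 and 204.9 in HOM_ETO, against 1128, 1332, 1152 and 990.8 in WT_ETO, a difference of -2.13 ± 0.11 (SE, limma adjusted p 5.96e-12). The others of that list spread widely, with PMAIP1 (NOXA) at -0.44, APAF1 at -0.08 and BID at 0.42, which were not called and are named after their values were seen.

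Repair genes were lower in 6 of 9, with a median of -1.08, where 16.1% of all tested genes were lower and 16% higher. TRIAP1, a small inhibitor of apoptosis, differed by -1.55 ± 0.09 and RPS27L, a ribosomal protein paralog, by -1.45 ± 0.12 (SE, limma adjusted p 2.22e-11 and 4.26e-09). RPS27L held 1534, 1624, 1301 and 1099 normalized counts in HOM_ETO, against 3644, 4262, 3437 and 3718 in WT_ETO. The groups did not overlap, as in 53.9% of all tested genes. Metabolic and redox targets were lower in 13 of 21 and higher in 1, with a median of -1.21. GLS2, which makes glutamate from glutamine, held 7.91, 7.3, 12.3 and 10.2 in HOM_ETO, against 408.2, 354.2, 434.6 and 380.7 in WT_ETO (-5.27 ± 0.25, SE, limma adjusted p 1.03e-12). The exception was ABCB1, a drug efflux pump, at 394.9, 424.4, 362.0 and 341.8 in HOM_ETO, against 225.9, 196.7, 167.2 and 194.7 in WT_ETO (0.96 ± 0.10, SE, limma adjusted p 1.85e-07). In KO_ETO, ABCB1 averaged 175.4, near its mean of 196.1 in WT_ETO. The other higher target was TNFAIP8, an anti-apoptotic gene, at 1.03 ± 0.11 (SE). The remaining targets, of mixed function, were lower in 29 of 32 and higher in 1, with a median of -1.58.

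A p53 response element has a pair of cores, each read as C, then 2 bases that are A or T, then G. The search was for such a pair with 6 bases between the cores, which reads the same way on both strands, from 250 bases before to 50 after the start of transcription. RefSeq gave such a window, on GRCh38.p14, for 80 of the p53 targets. The pair was in 18.8% of them, against 5.85% of all genes with a window and 5.13% of the tested ones. The following 120-base stretches belong to the 4 called targets with the largest differences among those holding the pair, and capitals mark the cores and the bases between them.
GDF15, chr19:18386088-18386207, plus strand: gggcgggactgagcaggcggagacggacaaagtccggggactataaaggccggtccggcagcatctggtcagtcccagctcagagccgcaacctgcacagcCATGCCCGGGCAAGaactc
GLS2, chr12:56488112-56488231, minus strand: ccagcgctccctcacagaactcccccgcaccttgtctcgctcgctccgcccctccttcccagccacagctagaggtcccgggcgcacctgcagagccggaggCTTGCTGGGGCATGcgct
FAS, chr10:88991259-88991378, plus strand: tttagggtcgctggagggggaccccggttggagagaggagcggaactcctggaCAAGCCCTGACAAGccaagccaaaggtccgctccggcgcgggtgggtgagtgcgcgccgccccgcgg
SESN1, chr6:109008968-109009087, minus strand: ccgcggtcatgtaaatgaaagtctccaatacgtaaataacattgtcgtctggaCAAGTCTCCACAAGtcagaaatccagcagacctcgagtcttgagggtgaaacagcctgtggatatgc
The pair began 31 bases after the start in GDF15 and 32 after it in GLS2, and 119 and 46 bases before it in FAS and SESN1. A match is a description of the letters and not a site of binding. SESN1, a sensor of leucine, held 235.8, 215.1, 221.6 and 179.4 normalized counts in HOM_ETO, against 850.8, 948.3, 843.9 and 772.0 in WT_ETO (-2.0 ± 0.10, SE, limma adjusted p 1.39e-12).

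The 12 largest falls, of which GDF15 is one, included several genes of the skin's outer layer, and TREM2, LCE1C, LCE1F, LGALS7B, RNASE7 and NECTIN4 are on the p53 target list from an earlier account of these data. TREM2, a receptor of myeloid cells, held 1.58, 1.62, 1.53 and 0.85 normalized counts in HOM_ETO, against 1296, 1201, 1323 and 1020 in WT_ETO. Late cornified envelope genes followed, with LCE1C at 1.58, 5.68, 1.53 and 4.25 in HOM_ETO, against 769.3, 652.3, 762.9 and 643.8 in WT_ETO. NECTIN4, an epithelial adhesion gene, held 29.3, 34.1, 29.1 and 26.4 in HOM_ETO, against 1742, 1878, 1740 and 1808 in WT_ETO. TREM2 and LCE1C were near the limit of detection in HOM_ETO, where 3 counts in a library equal 2.301 to 2.551 normalized counts, and their fitted size depends on the added 1. The differences were -8.99 ± 0.20, -7.50 ± 0.30 and -5.87 ± 0.08 for TREM2, LCE1C and NECTIN4 (SE, limma adjusted p 9.08e-17, 1.46e-13 and 1.45e-19). LCE1F, LCE1E and LCE1B, near-identical relatives of LCE1C between which reads may be split, differed by -7.69, -6.23 and -6.11. LGALS7B, almost a copy of LGALS7, differed by -6.59 ± 0.49, RNASE7, an antimicrobial gene of skin, by -6.04 ± 0.30 and SIGLEC14, which shares sequence with SIGLEC5, by -5.79 ± 0.34 (SE). All of these were at a mean of at most 10.7 in KO_ETO except NECTIN4, at 23.4, and KO_ETO libraries entered the same fit.

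SERPINB5, which is on a p53 target list, and ZNF597, also among the largest falls, had a different profile. SERPINB5 (maspin) held 0, 6.49, 2.3 and 1.7 normalized counts in HOM_ETO, against 355.3, 436.5, 368.4 and 360.5 in WT_ETO, but 207.5 on average in KO_ETO. ZNF597, an imprinted zinc finger gene, held 2.37, 0.812, 0.767 and 0 in HOM_ETO, against 138.6, 152.5, 135.0 and 116.6 in WT_ETO, and averaged 51.9 in KO_ETO. Both were therefore lower in HOM_ETO than in KO_ETO too, by -6.18 ± 0.37 and -4.83 ± 0.31 (SE, limma adjusted p 2.92e-10 for SERPINB5). ZNF597 was also low without etoposide, at a mean of 1.84 in HOM_DMSO and 2.1 in its library 1, against 50.5 to 81.4 in WT_DMSO libraries. H2AFJ, a histone H2A variant, held 2.37 to 9.74 in HOM_ETO, against 254.4 to 318.3 in WT_ETO, and averaged 276.1 in KO_ETO. Without etoposide it averaged 14.2 in HOM_DMSO, with 13.6 in its library 1, against 531.8 to 756.0 in WT_DMSO libraries.

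The largest rises were in genes of low level. CCKAR, a cholecystokinin receptor, held 56.2, 55.2, 81.3 and 71.4 normalized counts in HOM_ETO, against 1.68, 1.0, 0.871 and 0 in WT_ETO. FGF21, a metabolic hormone of the ATF4 stress list, held 74.4, 72.2, 106.6 and 107.1 in HOM_ETO, against 3.36, 4.01, 3.48 and 1.93 in WT_ETO. EFHD1, a calcium-binding protein of mitochondria, held 277.8, 259.7, 320.6 and 352.9 in HOM_ETO, against 20.2, 25.1, 33.1 and 34.7 in WT_ETO. Genes were listed among the largest rises only where the groups did not overlap, so the gap between their libraries was set by selection. Such a gap, with HOM_ETO higher, was found for 25.4% of all tested genes. The differences were 5.22 ± 0.33, 4.44 ± 0.20 and 3.40 ± 0.21 (SE, limma adjusted p 8.46e-11, 6.48e-13 and 6.59e-11 for CCKAR, FGF21 and EFHD1). Of the other 9, GABRG1, a GABA receptor subunit, differed by 4.67 ± 0.35, the peptide gene SPX by 3.68 ± 0.21 and the amino acid transporter SLC7A3 by 3.10 ± 0.24 (SE). FABP5P7, at 6.67 ± 0.47, is a processed pseudogene that can take reads from its parent FABP5. TCIM, CLEC7A, PTGER3, RTP3 and PLPPR4 ranged from 2.95 to 3.64.

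Cell cycle genes differed in the direction opposite to the p53 targets. Of all tested genes 16% were higher and 16.1% lower, with a median difference of -0.02. Of 52 G2 and mitosis genes, 49 were higher and 0 lower in HOM_ETO, with a median difference of 1.57 and values between -0.27 and 2.37. TTK, a checkpoint kinase of mitosis, held 577.7, 532.4, 605.1 and 363.9 in HOM_ETO, against 91.5, 130.5, 101.9 and 76.1 in WT_ETO (2.37 ± 0.17, SE, limma adjusted p 3.69e-10). NUSAP1, a spindle protein, held 1125, 1168, 1154 and 886.1 in HOM_ETO, against 238.5, 230.8, 175.9 and 214.0 in WT_ETO (2.33 ± 0.11, SE, limma adjusted p 1.66e-12). HOM_ETO library 4 was the lowest of its group in both genes, yet still above every WT_ETO library. The 3 members not called were PTTG1, BUB3 and CDC25B, at -0.27, 0.51 and 0.56. Of 51 S phase and replication genes, 46 were higher and 0 lower (median 1.14). PRIM1, the catalytic subunit of DNA primase, held 906.2, 966.6, 899.6 and 710.0 in HOM_ETO, against 239.4, 235.8, 229.1 and 187.9 in WT_ETO (1.96 ± 0.10, SE, limma adjusted p 2.16e-12). CCNE2, cyclin E2, differed by 1.85 ± 0.13 (SE). PCNA, the sliding clamp, which is on both the p53 target and the S phase list, was at 0.02 and was not called. Of 33 homologous recombination and Fanconi anemia genes, 22 were higher and 1 lower (median 1.04), with the helicase gene BLM at 1.87 ± 0.10 and RAD54B at 1.98 ± 0.26 (SE). The 1 lower gene was RAD51B, a recombination factor, at -0.78 ± 0.15, which was under 1.5-fold with total-count scaling (-0.56) and with the deposited transformed values (-0.51).

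The transcription factor E2F1, which drives S phase genes, held 2491, 2638, 2852 and 3347 in HOM_ETO, against 992.7, 867.0, 1104 and 969.6 in WT_ETO (1.52 ± 0.09, SE, limma adjusted p 2.08e-11). RB1, which restrains E2F factors, was lower, with 307.1, 340.0, 299.9 and 295.9 in HOM_ETO, against 502.2, 545.9, 487.7 and 471.3 in WT_ETO (-0.69 ± 0.08, SE, limma adjusted p 3.26e-07). RB1 was under 1.5-fold with total-count scaling, at -0.47, and missed the threshold with all 32 libraries in the fit (adjusted p 6.89e-02). CDK6, a kinase that inactivates RB, was lower by -1.81 ± 0.07 (SE), at 203.4 to 237.8 in HOM_ETO, against 743.8 to 852.0 in WT_ETO. E2F1, RB1 and CDK6 were chosen after their values were seen.

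Promoters of the cell cycle genes were searched in the same windows. The cell cycle genes homology region (CHR), TTTGAA or TTCAAA, was in 71.1% of the 45 G2 and mitosis genes with a window, against 18.2% of all genes and 14.4% of the tested ones. It was in 2.33% of the 43 S phase genes with a window. An E2F site (TTTCCCGC or TTTGGCGC, either strand) was in 48.8% of those S phase genes, against 2.75% of all genes and 4.24% of the tested ones. It was in 6.67% of the G2 and mitosis genes. Among all called genes the CHR was in 19.8% of the higher and 14% of the lower ones, and the E2F site in 6.71% of the higher and 2.88% of the lower ones. The stretches below, from the genes with the largest differences among those that hold each motif, show its place in capitals.
NUSAP1, CHR, chr15:41332811-41332930, plus strand: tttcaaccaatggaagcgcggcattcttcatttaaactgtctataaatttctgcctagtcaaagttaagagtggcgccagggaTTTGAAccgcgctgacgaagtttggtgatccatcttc
PRC1, CHR, chr15:90994493-90994612, minus strand: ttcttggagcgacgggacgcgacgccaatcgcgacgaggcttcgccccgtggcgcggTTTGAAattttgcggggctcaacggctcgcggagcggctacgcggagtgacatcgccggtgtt
BUB1B, CHR, chr15:40160989-40161108, plus strand: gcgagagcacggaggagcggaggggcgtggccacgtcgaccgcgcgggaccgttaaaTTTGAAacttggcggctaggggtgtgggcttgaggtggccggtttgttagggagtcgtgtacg
CLSPN, E2F site, chr1:35769929-35770048, minus strand: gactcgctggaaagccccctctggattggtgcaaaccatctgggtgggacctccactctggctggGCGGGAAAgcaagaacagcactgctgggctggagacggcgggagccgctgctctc
GINS2, E2F site, chr16:85688922-85689041, minus strand: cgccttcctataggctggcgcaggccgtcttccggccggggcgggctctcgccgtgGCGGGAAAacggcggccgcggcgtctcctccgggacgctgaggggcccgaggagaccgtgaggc
PRC1, which bundles the central spindle, held 2944, 2892, 2810 and 2529 in HOM_ETO, against 664.3, 712.5, 644.5 and 647.7 in WT_ETO (2.06 ± 0.06, SE, limma adjusted p 1.72e-15). CLSPN, claspin, which carries the replication checkpoint signal, held 1372, 1359, 1280 and 1143 in HOM_ETO, against 382.1, 449.6, 379.7 and 399.0 in WT_ETO (1.68 ± 0.09, SE, limma adjusted p 1.26e-11). GINS2, a subunit of the replicative helicase, differed by 1.65 ± 0.08 and BUB1B, a spindle checkpoint kinase, by 2.03 ± 0.07 (SE).

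**Figure D3:**
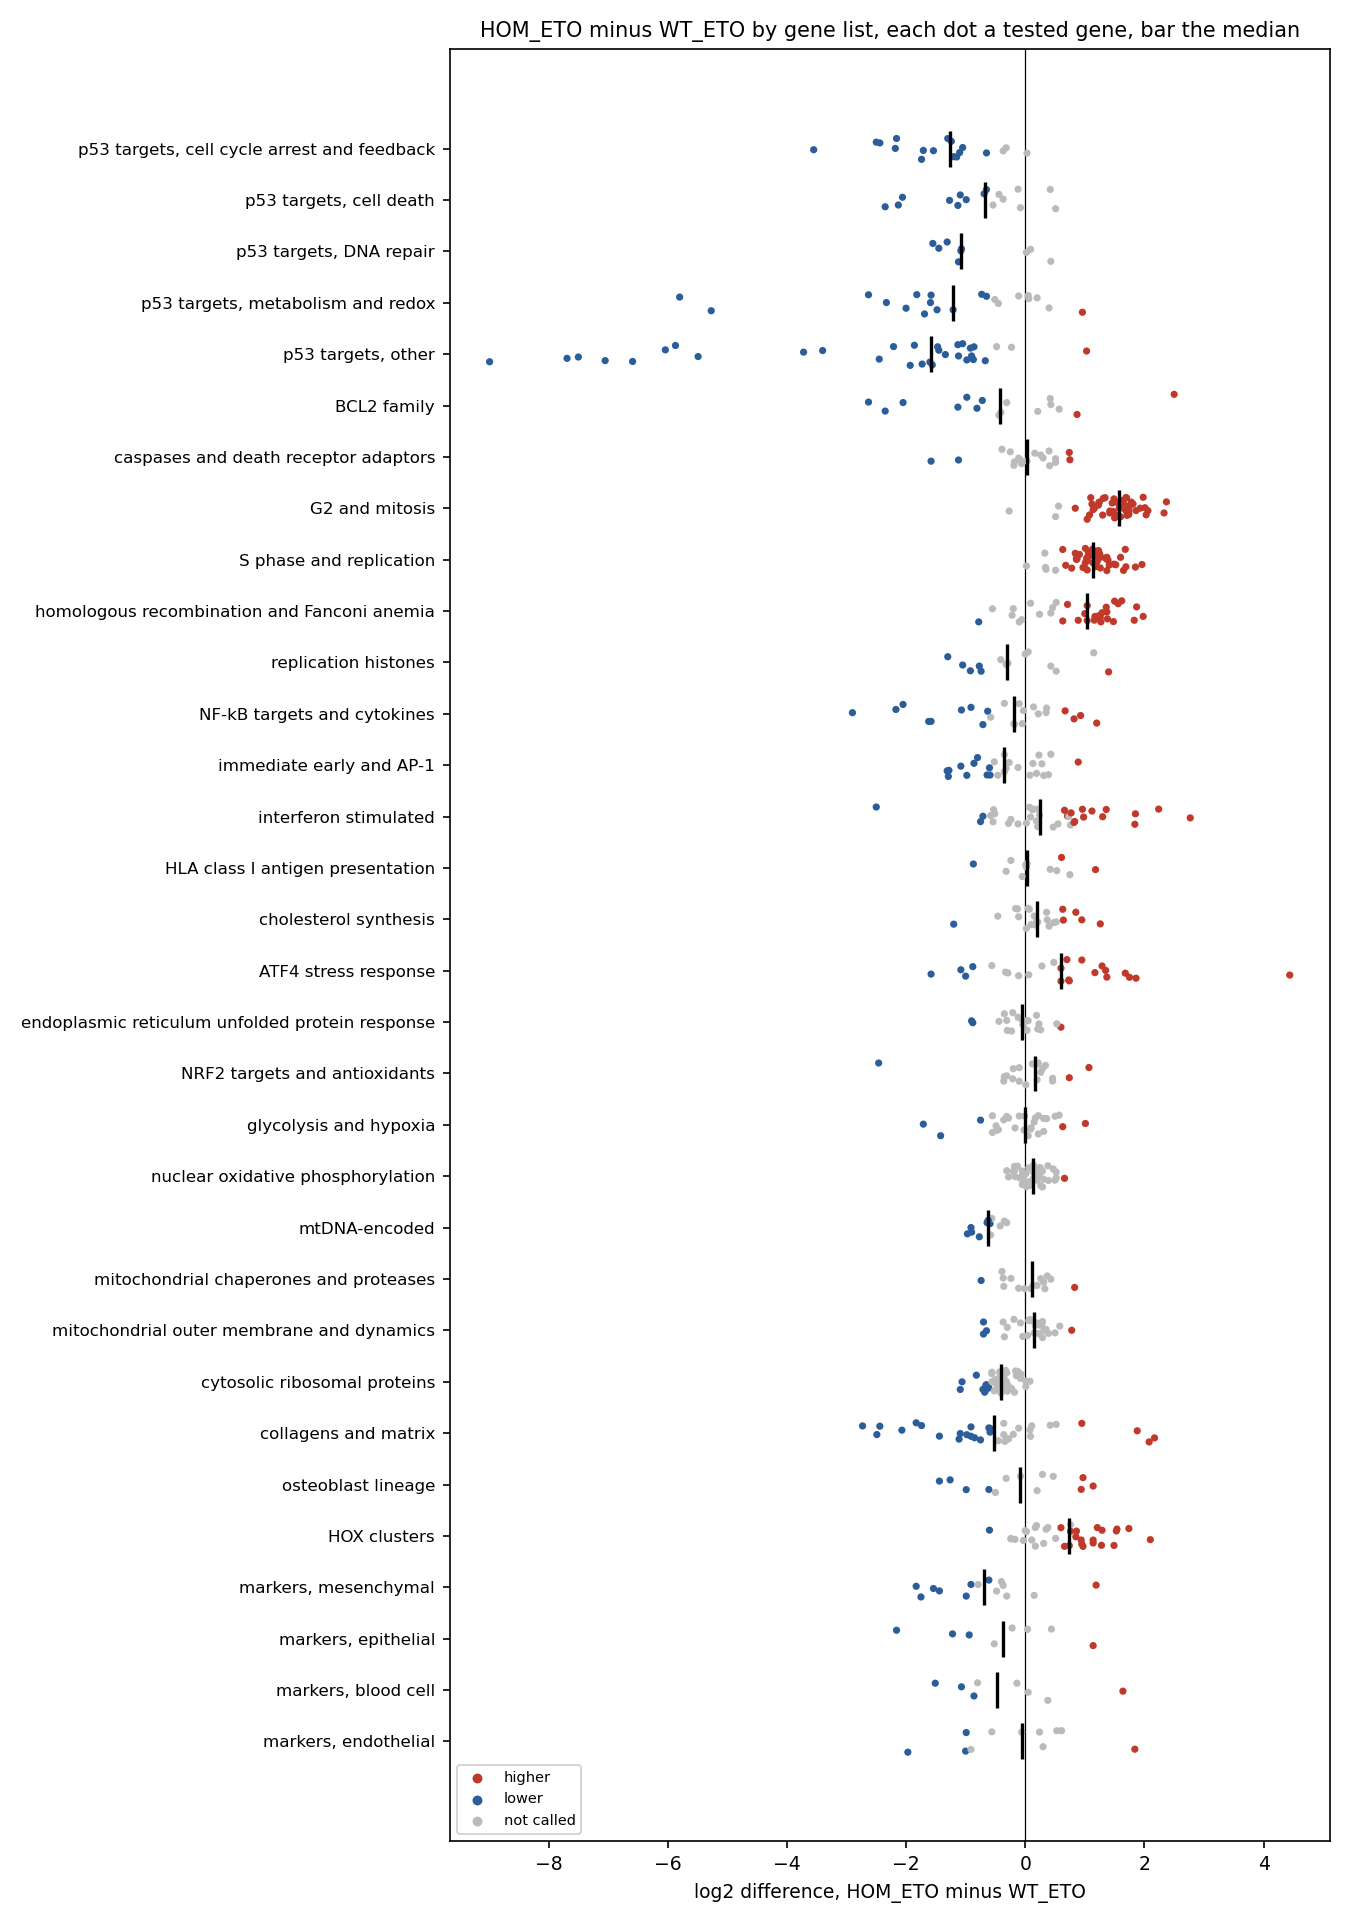
Log2 difference HOM_ETO minus WT_ETO of each tested gene (dot) by gene list, coloured by call, with a bar at the median. The p53 target lists lie left of 0 with medians of -1.58 to -0.67, and the G2 and mitosis, S phase and homologous recombination lists lie right of it with medians of 1.57, 1.14 and 1.04.

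Set against the cells without p53, HOM_ETO had 1623 genes higher (9.87%) and 938 lower (5.70%) of the same 16449, 15.6% in all. This comparison and the one with WT_ETO share the HOM_ETO libraries. The difference HOM_ETO minus KO_ETO lay between -0.24 and 0.35 for CDKN1A, MDM2, BBC3, BAX and GDF15, all under 1.5-fold and not called. Their 95% intervals were -0.38 to -0.09 for CDKN1A, 0.16 to 0.53 for MDM2, -0.35 to 0.00 for BBC3, 0.23 to 0.47 for BAX and 0.09 to 0.45 for GDF15. A miss of the 1.5-fold threshold does not show that the cells were alike. G2 and mitosis genes gave 1 higher and 1 lower of 52 (median 0.04), S phase genes 0 higher and 3 lower of 51 (median -0.04), and homologous recombination genes 0 higher and 2 lower of 33 (median -0.01).

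Of the 96 tested p53 targets, 20 were higher and 5 lower in HOM_ETO than in KO_ETO, where 9.87% of all tested genes were higher and 5.70% lower. The number of lower ones is near that share and is no result about the targets. The median was 0.15, against 0.01 for all tested genes. Without the 7 genes of the earlier account, 18 of 89 were higher and 4 lower. Among the 20 were RRM2B, a subunit of ribonucleotide reductase, DDB2, which recognizes ultraviolet damage, and ZMAT3, an RNA-binding tumour suppressor. RRM2B averaged 1451 normalized counts in HOM_ETO, against 553.3 in KO_ETO, and 3054 in WT_ETO. Its difference from KO_ETO was 1.38 ± 0.10 (SE, limma adjusted p 4.75e-09). DDB2 averaged 1382 in HOM_ETO, against 792.2 in KO_ETO (0.80 ± 0.06, SE, limma adjusted p 3.29e-09), and ZMAT3 690.6 in HOM_ETO, against 358.6 in KO_ETO (0.95 ± 0.06, SE, limma adjusted p 3.15e-10). TP53INP1, which promotes autophagy and cell death, differed by 1.08 ± 0.09, the death receptor EDA2R by 1.02 ± 0.06 and RPS27L by 0.89 ± 0.12 (SE). In these 6 genes HOM_ETO lay above KO_ETO and under WT_ETO in the means. HMOX1, SCO2 and ABCB1, also among the 20, averaged 1715, 448.1 and 380.8 in HOM_ETO. These means were above those in WT_ETO too (1491, 429.1 and 196.1). TREM2 and LGALS7B, also among the 20, averaged 1.4 and 2.27 in HOM_ETO, under the limit of 3 counts, against 0.21 and 0 in KO_ETO. CASP1, the caspase of inflammasomes, had the largest difference of the 20, at 1.75 ± 0.12, with means of 160.8 in HOM_ETO and 46.9 in KO_ETO, but was not called against WT_ETO, where it averaged 112.6. Among the 5 lower ones, SERPINB5, given above, had the largest difference (-6.18). IGFBP7, a secreted binding protein of insulin-like growth factors, averaged 426.8 in HOM_ETO, against 986.9 in KO_ETO (-1.20 ± 0.07, SE, limma adjusted p 3.89e-10), and 1634 in WT_ETO. Genes of this paragraph were named after their values were seen.

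Beside ZNF597 and H2AFJ, given above, other genes outside the p53 lists also differed widely from KO_ETO. IGFBP4, a binding protein of insulin-like growth factors, held 2042, 1946, 2190 and 2433 in HOM_ETO, against a mean of 9.02 in KO_ETO (8.03 ± 0.31, SE), and 1563 to 1844 in WT_ETO. The homeobox gene DLX4 held 213.7 to 284.9 in HOM_ETO, against a mean of 0.861 in KO_ETO (7.22 ± 0.32, SE), and 44.3 to 51.4 in WT_ETO. MFAP5, a microfibril protein, held 7.12, 18.7, 14.6 and 12.8 in HOM_ETO, against a mean of 504.9 in KO_ETO (-5.22 ± 0.18, SE) and 128.0 to 172.2 in WT_ETO. KRT14, a keratin, held 33.2 to 38.1 in HOM_ETO, against a mean of 744.3 in KO_ETO (-4.37 ± 0.10, SE), and 143.5 to 181.2 in WT_ETO. Interferon-stimulated genes were higher in HOM_ETO than in KO_ETO for 16 of 37 and lower for 0 (median 0.50), and HOX genes for 13 of 35 and lower for 1 (median 0.40), beside 9.87% higher and 5.70% lower of all tested genes.

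**Figure D4:**
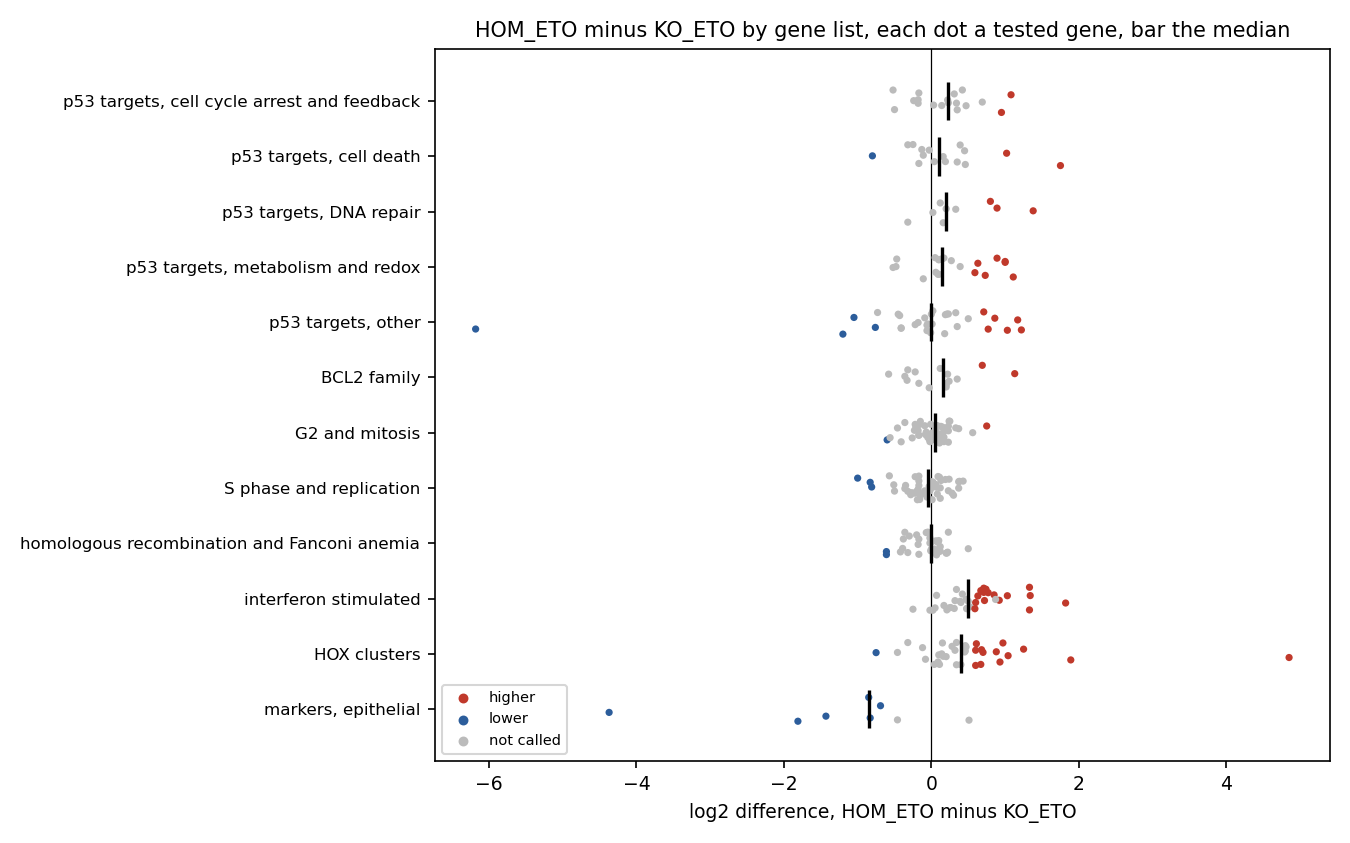
Log2 difference HOM_ETO minus KO_ETO of each tested gene (dot) for 12 lists, coloured by call, with a bar at the median. Medians of the cell cycle lists lie at -0.04 to 0.04, and 20 p53 targets stand out to the right and 5 to the left.

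BCL2 family genes were lower in 7 and higher in 2 of 16, and with total-count scaling lower in 6 and higher in 5. The family decides whether the mitochondrial outer membrane opens, with BCL2 and its close relatives as guards and BH3-only proteins as triggers. BCL2L1, which encodes the guard BCL-XL, held 1895, 1844, 1907 and 2196 in HOM_ETO, against 8168, 7111, 8534 and 8667 in WT_ETO (-2.05 ± 0.07, SE, limma adjusted p 2.04e-14). BCL2A1, another guard, held 29.3, 35.7, 21.5 and 13.6 in HOM_ETO, against 173.8, 166.6, 149.8 and 119.5 in WT_ETO (-2.63 ± 0.23, SE, limma adjusted p 7.94e-09). BCL2, the founding guard, was higher at 0.87 ± 0.11, and the BH3-only trigger BMF was higher at 2.50 ± 0.10 (SE). BMF held 334.0, 350.6, 378.9 and 421.8 in HOM_ETO, against 68.0, 63.2, 65.3 and 62.6 in WT_ETO, and the mean in KO_ETO was 229.3. MCL1, BCL2L2 and BAK1 were lower, with differences of -0.72, -0.81 and -0.98. Of 19 caspases and death receptor adaptors 2 were higher and 2 lower, where 16% of all tested genes were higher and 16.1% lower, so these counts are no result about the list, and with total-count scaling 6 were higher. BIRC3, an inhibitor of apoptosis, was at -1.58 ± 0.11 (SE).

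Nuclear genes of mitochondria were mostly not called, where 16% of all tested genes were higher and 16.1% lower. Of 45 nuclear genes of oxidative phosphorylation 1 was higher, SDHD, a subunit of complex II, at 0.66 ± 0.08 (SE), and 0 were lower. With total-count scaling 6 were higher and with quantile normalization 5. All 13 mtDNA-encoded genes were under 0, between -0.97 and -0.31, and 8 were called lower. Their summed level was 1495604 to 1784721 normalized counts in HOM_ETO, against 1905275 to 3018486 in WT_ETO, and their share of counts was 9.23 to 10.19% in HOM_ETO, against 10.40 to 14.95% in WT_ETO. With quantile normalization 0 of the 13 were called (median -0.01), and without WT_ETO library 4, which had the highest levels, 4 were. The cytosolic ribosomal protein genes had a median of -0.41, with 9 of 53 lower and 0 higher. The number of lower ones was near the share of all tested genes (16.1%), while 50 of the 53 lay under 0. With quantile normalization 2 were lower (median -0.08). The outer membrane channel VDAC1 was lower at -0.70 ± 0.06 and its relative VDAC3 higher at 0.78 ± 0.08 (SE), of 27 outer membrane and dynamics genes with 3 lower and 1 higher. The direction of these calls turned with the scaling, to 0 lower and 4 higher with total-count scaling and 1 lower and 2 higher with quantile normalization. VDAC1 was under 1.5-fold with total-count scaling and quantile normalization (-0.48 and -0.53).

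Targets of ATF4, a factor of amino acid stress, gave 14 higher, 4 lower and 7 not called of 25 (median 0.60), where 16% of all tested genes were higher and 16.1% lower, with the serine synthesis enzyme PHGDH at 5417, 5456, 6217 and 6953 in HOM_ETO, against 1628, 1464, 1798 and 1698 in WT_ETO (1.86 ± 0.08, SE, limma adjusted p 6.11e-13). The 4 lower ones were SESN2 (-1.58 ± 0.09), which is on a p53 list too, DDIT4 (-1.08 ± 0.07), SLC7A5 (-0.88) and NUPR1 (-1.0), the last 2 named after their values were seen. Interferon-stimulated genes were higher in 14 and lower in 3 of 37, with GBP1, a guanylate-binding protein, at 165.4, 137.2, 158.0 and 109.7 in HOM_ETO, against 21.8, 23.1, 15.7 and 19.3 in WT_ETO (2.77 ± 0.20, SE, limma adjusted p 7.85e-10). Among the 3 lower ones were TRIM22 and ISG15, a ubiquitin-like modifier, at -0.75 ± 0.08 (SE), which was under 1.5-fold with total-count scaling (-0.53). Without HOM_ETO library 2 the number of lower ones was 6, and with total-count scaling it was 1. HOX genes, which mark positional identity, were higher in 19 and lower in 1 of 35 (median 0.74; 0 lower with either other scaling), with HOXA13 at 188.4, 176.1, 169.5 and 161.6 in HOM_ETO, against 32.8, 47.2, 35.7 and 45.3 in WT_ETO. NF-kB targets and cytokines were lower in 9 and higher in 4 of 24, and their median of -0.19 was 0.03 with total-count scaling, with the metalloproteinase gene MMP3 at -2.90 ± 0.10, the cytokine CSF2 at -2.17 ± 0.13 and the chemokine CXCL8 at 1.20 ± 0.13 (SE). CXCL8 missed the threshold with all 32 libraries in the fit (adjusted p 1.76e-01). Immediate early genes were lower in 10 and higher in 1 of 26, with EGR1 at -1.31 ± 0.11 (SE), and with total-count scaling 6 were lower and 2 higher, and with quantile normalization 7 and 1. Of the other lists, cholesterol synthesis had 5 higher and 1 lower of 23, replication histones 1 higher and 5 lower of 14, unfolded protein response 1 and 2 of 20, NRF2 targets 2 and 1 of 20, glycolysis and hypoxia 2 and 3 of 29, mitochondrial chaperones 1 and 1 of 16, and HLA class I genes 2 and 1 of 12. With total-count scaling 9 cholesterol genes were higher, and the replication histones had 3 higher and 3 lower. Replication histone transcripts lack a poly-A tail, and these libraries were selected for one.

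Some matrix and marker genes differed as well, where 16% of all tested genes were higher and 16.1% lower. Of 34 collagen and matrix genes 17 were lower and 4 higher (median -0.52). COL7A1 and COL4A1, collagens of basement membranes, differed by -2.73 ± 0.11 and -2.49 ± 0.06 (SE), and COL3A1, a fibrillar collagen, held 6070, 6481, 6366 and 7020 in HOM_ETO, against 1519, 1552, 1535 and 1520 in WT_ETO (2.08 ± 0.06, SE, limma adjusted p 1.22e-15). LOX, which crosslinks collagen, differed by 2.17 ± 0.06 (SE). The 15 mesenchymal markers, all present and with none at 0, gave 7 lower and 1 higher of 14 tested and summed to 83246 to 100107 normalized counts in HOM_ETO, against 170027 to 183376 in WT_ETO. FN1, fibronectin, held 6812, 6854, 6418 and 8722 in HOM_ETO, against 25301, 24666, 25680 and 25723 in WT_ETO. Osteoblast genes were lower in 4 and higher in 3 of 13, and with total-count scaling lower in 3 and higher in 4. Of the 14 epithelial markers 8 were tested, with 3 lower and 1 higher, and their sum was 8977 to 11002 in HOM_ETO, against 15602 to 18847 in WT_ETO. Of 18 blood cell markers 8 were tested, with 3 lower and 1 higher (median -0.47). Of 11 endothelial markers 3 were lower and 1 higher (median -0.06). That is near the 32.1% called of all tested genes and is no result about the endothelial list. CD34, found on blood stem cells and vessels, was at 1.64 ± 0.09, the clotting factor gene VWF at 1.84 ± 0.16 and the vessel receptor gene ROBO4 at -1.97 ± 0.17 (SE). Blood cell markers summed to 806.7 to 882.8 in HOM_ETO, against 779.7 to 840.4 in WT_ETO, and endothelial markers to 481.3 to 602.0 in HOM_ETO, against 513.8 to 576.5 in WT_ETO. No marker of these lists was at 0 in every one of the 8 libraries, and their part in the other differences was not tested.

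Genes were not called evenly along the genome. On chromosome 13, 123 of 256 tested genes were lower (48.0%) and 16 higher (6.25%), with a median difference of -0.59. Most of the lower ones lay from 35 Mb to the end (chromosome and positions from GENCODE 29 on GRCh38), where 114 of 185 were lower (61.6%) and 3 higher and the median was -0.78, while from the start to 35 Mb it was 0.08 with 9 of 71 lower. The boundaries on chromosomes 13, 16 and 17 were set after the values were seen. In the same segment the median was -0.84 for HOM_ETO minus KO_ETO and -0.01 for KO_ETO minus WT_ETO. It was 0.32 for heterozygous minus wild-type cells with etoposide. For HOM_DMSO minus WT_DMSO it was -1.57, or -0.85 with HOM_DMSO library 1 alone. UBAC2, which lies there, held 110.0, 138.0, 138.8 and 160.7 in HOM_ETO, against 719.7, 665.3, 711.5 and 623.6 in WT_ETO (-2.31 ± 0.09, SE, limma adjusted p 8.41e-14). RB1 and COL4A1, described above, lie on chromosome 13 too, as do PCDH17, a protocadherin (-3.44 ± 0.17), and STARD13, a lipid transfer domain protein (-2.89 ± 0.12, SE). Chromosome 17 had 46.5% of 256 genes lower from 60 Mb to the end, with a median of -0.57. There the median was -0.31 for HOM_ETO minus KO_ETO, -0.18 for KO_ETO minus WT_ETO and -0.20 for heterozygous minus wild-type cells with etoposide. For HOM_DMSO minus WT_DMSO it was 0.01, or -0.34 with HOM_DMSO library 1 alone. Chromosome 16 had 31.4% of 439 lower up to 36 Mb, with a median of -0.39, and there the heterozygous cells were lower too, at -0.50. The median was -0.27 for HOM_ETO minus KO_ETO and -0.15 for KO_ETO minus WT_ETO. For HOM_DMSO minus WT_DMSO it was 0.15, or -0.27 with HOM_DMSO library 1 alone. On chromosome 15, 27.8% were higher and 7.23% lower. The number of gene copies was not measured, and its part in these differences was not tested.

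**Figure D5:**
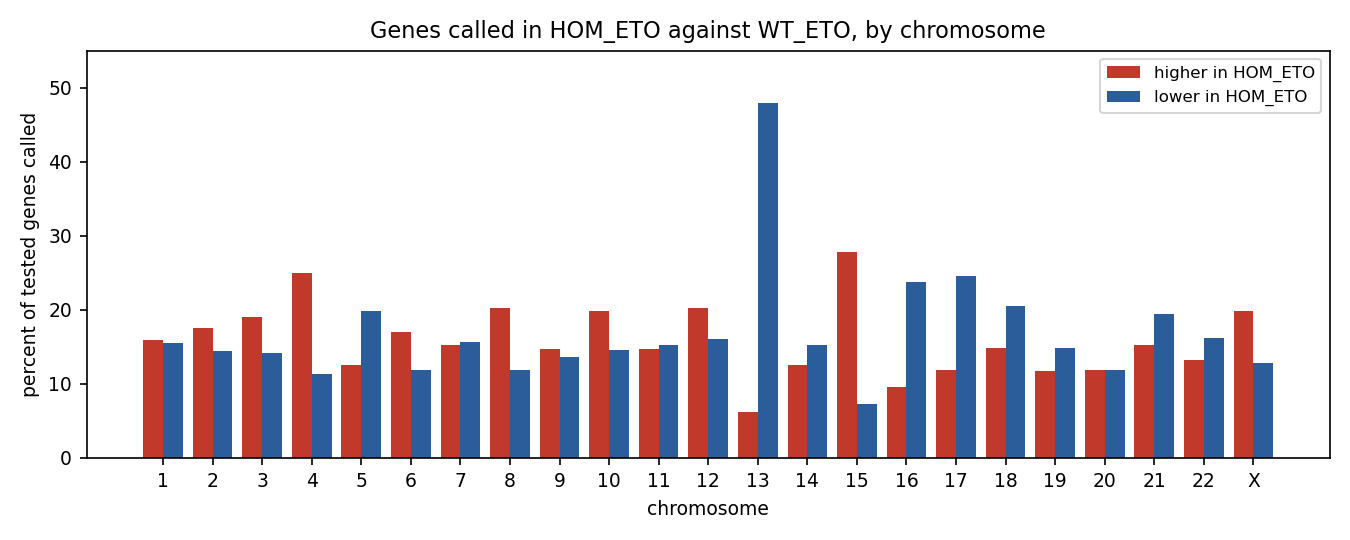
Percent of tested genes called higher (red) and lower (blue) in HOM_ETO against WT_ETO on each chromosome. Chromosome 13 has 48.0% lower and 6.25% higher, and chromosome 15 has 27.8% higher and 7.23% lower.

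Libraries 2 to 4 of HOM_DMSO stood apart from the rest, with up to 21.92% of counts from mtDNA-encoded genes and sums of up to 47.28 M normalized counts, so results that use them are given with and without them. Without them 1 HOM_DMSO library is left, which is assumed to vary like the others. In DMSO 3300 genes were higher (20.4%) and 4056 lower (25.0%) in HOM_DMSO than in WT_DMSO, and without the 3 libraries 138 (0.858%) and 540 (3.36%), or 4.22% in all. With all libraries, 808 genes were called lower both with and without etoposide, 30.9% of the etoposide list and 20.0% of the DMSO list, and 653 higher, 25.2% and 19.9%. Of the genes called lower in HOM_ETO, 369 were also called lower without the 3 libraries, which is 14.1% of the etoposide list and 69.1% of the DMSO list. For the higher genes 92 were shared, 3.56% of the etoposide list and 66.7% of the DMSO list. These sets compare different libraries, but the fit for DMSO also held the HOM_ETO and WT_ETO libraries, so the sets are not independent.

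The difference HOM minus WT in etoposide minus that in DMSO gives the response that differs between the genotypes. It was called higher for 3227 genes (19.9%) and lower for 3679 (22.7%), and without the 3 libraries for 1395 (8.68%) and 1516 (9.43%). With all libraries it was -4.28 for GDF15, -2.25 for BBC3, -1.55 for CDKN1A and -1.53 for BAX, and without HOM_DMSO libraries 2 to 4 it was -3.78 ± 0.20, -2.20 ± 0.15, -0.99 ± 0.19 and -1.03 ± 0.18 (SE), all called by limma. MDM2 was not called with all libraries, at -0.28, and was called without the 3, at -1.39 ± 0.32 (SE, limma adjusted p 7.53e-03). Of 96 p53 targets, 51 had a lower response in HOM cells and 4 a higher one (median -0.75, against 0.04 for all tested genes), and without the 3 libraries 57 and 1 (median -0.92, against -0.03). G2 and mitosis genes had a higher one for 41 of 52 and S phase genes for 35 of 51, and without the 3 libraries for 35 and 42, with 0 lower in either list both ways. In DMSO itself, G2 and mitosis genes had 8 higher and 12 lower (median -0.59), and without the 3 libraries 0 called and a median of 0.23, with 44 of 52 above 0. S phase genes had 13 higher and 11 lower in DMSO, and without the 3 libraries 0 and 1. The p53 targets had 9 higher and 39 lower in DMSO (median -0.42), and without the 3 libraries 0 and 19 (median -0.21). With 1 HOM_DMSO library few genes can be called, so a lack of calls there does not show that the genotypes were alike.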

How the data were processed

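RNA of U2OS cells was sequenced as poly-A libraries, per the labels' protocols. Kallisto, DESeq2 and the builds GRCh38 and hg38 are named in the submitters' processing notes, with versions not given in the sources used here, and whether counting used strand is not stated. The deposited matrix holds log2-like values from the variance-stabilizing transformation of DESeq2, made by the authors. Inverting that transformation gave normalized counts, whose mean matched the mean level (the signal column baseMean) in the authors' deposited table, and the recovered counts were whole, within 0.01, for 100% of the values in each library. That table also gives log2 fold changes, a Wald score, and p-values with adjusted p, per the file headers.

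limma 3.58.1 (R 4.3.3, trend) was fitted to log2 of the normalized count plus 1 for every gene that reached 10 normalized counts in 4 or more libraries of the fit, with Benjamini-Hochberg adjustment over all genes tested. One fit used the 16 etoposide libraries and another the 16 HOM and WT libraries with and without etoposide. Depth was 18.25 to 23.04 M counts per library in HOM_ETO and WT_ETO, and 3 counts, taken as the limit of a count of 0, were 2.301 to 3.010 normalized counts; this covers counting error only. The fits were checked on simulated data with 200 changed genes. Alternatives were another pseudocount (5), a stricter minimum (50), other scalings, the deposited transformed values, library weights, all 32 libraries, a replicate block, the authors' deposited table and each library left out.

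Genes named are CDKN1A, MDM2, BBC3, BAX and GDF15, the 12 largest rises and falls among called genes whose groups do not overlap and whose mean reaches 50 in 1 group, the 2 most changed called members per direction of each list, the 4 largest per direction in the other differences, and genes stated as chosen after their values were seen. The members and lists were chosen with earlier results of these data known, including 7 p53 list genes. Some genes that this rule names are not reported here. Promoter windows are from RefSeq on GRCh38.p14. Gene positions are from GENCODE 29 and matched 35403 symbols by name and 74 by an older symbol.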

Additional observations from a re-analysis of the deposited data

Results flagged for a closer look

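A single library stood away from the other 3 of its group in 4 of the 62 groups tested. Chance gives about 1 in 20, so this number is near the chance rate. TREM2 had 0.85 normalized counts in HOM_ETO library 4, below 1.53 to 1.62 in the others. All of these values lie under the limit of 3 counts, which is 2.301 to 2.551 normalized counts in HOM_ETO. RNASE7 had 6.14 in HOM_ETO library 3, above 3.17 to 3.4, which is near that limit. LCE1F had 323.1 in WT_ETO library 2, below 368.4 to 374.6, and SERPINB5 had 436.5 in WT_ETO library 2, above 355.3 to 368.4.

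The HOM minus WT difference itself differed between etoposide and DMSO, by the interaction term of limma's fit, for CDKN1A (-1.55, adjusted p 3.26e-04), BBC3 (-2.25, adjusted p 1.82e-07), BAX (-1.53, adjusted p 2.43e-04) and GDF15 (-4.28, adjusted p 1.82e-07). Without HOM_DMSO libraries 2 to 4 all 4 genes stayed past the threshold.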

How the results depend on the processing

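Of 2610 results for 131 named genes under up to 20 alternatives, 2555 kept their direction and side of the threshold, 50 (of 22 genes) lost the call, 5 (DSEL) gained it and 0 reversed. Of 1284 counts of called list members under the alternatives, 1201 stayed within 1.5 times. Total-count scaling gave 4055 higher and 1722 lower in HOM_ETO against WT_ETO, 587 lower against KO_ETO, 558 higher and 7148 lower in HOM_DMSO against WT_DMSO, and 7023 higher and 880 lower for the response difference. The deposited transformed values gave 867 higher and 600 lower against KO_ETO, and quantile normalization 2653 lower in DMSO. Without HOM_DMSO libraries 2 to 4 there were 138 higher and 540 lower in DMSO, and 1395 and 1516 for the response difference. The cause was not tested. Leaving out 1 library at a time gave 2544 to 2675 higher and 2548 to 2749 lower in HOM_ETO against WT_ETO, 1486 to 1645 and 893 to 1002 against KO_ETO, 2171 (without HOM_DMSO 4) to 4253 and 2602 (without HOM_DMSO 4) to 5176 in DMSO, and 2327 to 4941 (without HOM_DMSO 1) and 3067 to 4638 for the response difference.

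Same-numbered libraries correlated at -0.03 to 0.18, so the numbers do not pair them. With the replicate block there were 2623 higher and 2640 lower in HOM_ETO against WT_ETO, 1604 and 939 against KO_ETO, 3307 and 4070 in DMSO, and 3321 and 3734 for the response difference.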
